A study of Mus musculus with 12 samples.

Results

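This account follows 8 genes of lysosomal glycosidases, the enzymes that trim sugars from macromolecules inside the lysosome, across 4 lists of USF2 binding sites from mouse embryonic fibroblasts (MEFs). The genes were given by name (Gaa, Gla, Glb1, Hexa, Naglu, Gusb, Neu1 and Manba), out of 21887 protein-coding genes of RefSeq on the assembled chromosomes of GRCm38. A gene counted as called in a list when the summit of a peak lay within 1000 bp of either end of the gene, or inside it. USF2 was precipitated from chromatin of MEFs of genotype WT, either in the treatment labelled Normal or after Glucose starvation, with 2 libraries for each, called normal 1 and 2 and starved 1 and 2 here. The duration of starvation and the origin of the cultures are not given in the sources used here. The other 8 of the 12 samples of the series were not analysed here. They include inputs labelled Normal and Glucose starvation. The rest are inputs and H3K27ac libraries (a histone mark of active regulatory DNA) from Usf2 WT and Usf2 KO cells. Peak lists hold no expression values, so the cell type could not be checked against marker genes.

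Lysosomal glycosidases work one after another from the end of a sugar chain, so the loss of any one of them lets its substrate pile up, as in Pompe, Fabry, Sanfilippo and Tay-Sachs disease. USF2 is a transcription factor with a basic helix-loop-helix and a leucine zipper, which binds DNA as a dimer. Its preferred site is the E-box CACGTG, a palindrome that factors of the MiT/TFE family, known regulators of lysosomal genes, also recognise.

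The E-boxes of the 8 genes are shown first, because the peaks are placed against them further on. All 8 genes matched a RefSeq promoter window of GRCm38.p6, which runs from 250 bases before the start site to 50 bases after it. CACGTG, which reads the same on both strands, occurred in the windows of 4 of the 8 genes, namely Gaa, Gla, Glb1 and Naglu. For comparison, 7.84% of the 21263 windows of protein-coding genes held it. The 30 bases around each E-box are given in the direction of the gene, 5′ to 3′, with the E-box in capitals.
Naglu: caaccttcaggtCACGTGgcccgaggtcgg
Glb1: ctgcttctgagtCACGTGgcctacagaggc
Gla proximal: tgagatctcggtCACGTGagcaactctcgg
Gla distal: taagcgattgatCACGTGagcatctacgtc
Gaa: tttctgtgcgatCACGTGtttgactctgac
In the same order they lie at chr11:101070009-101070038 (plus strand), chr9:114401018-114401047 (plus strand), chrX:134601182-134601211 (minus strand), chrX:134601215-134601244 (minus strand) and chr11:119267811-119267840 (plus strand). The E-boxes began 73 bp before the start site of Naglu, 48 bp before that of Glb1, 194 and 227 bp before that of Gla and 140 bp before that of Gaa. Around the E-box, Naglu and Glb1 shared an unbroken run of 11 bases, gtCACGTGgcc, and both Gla sites shared 11 bases, tCACGTGagca. The longer form GTCACGTG, searched on both strands and overlapping CACGTG, was found in 3 of the 8 windows, at Naglu, Glb1 and the proximal site of Gla, against 2.84% of protein-coding windows. At Gaa the E-box is preceded by gat, and the 9 bases gatCACGTG also occur at the distal site of Gla. No CACGTG was found in the windows of Hexa, Gusb, Neu1 and Manba, which says only that these letters are not in these stretches.

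The stretches before the start sites of Naglu, Glb1 and Gaa, from 160 to 11 bases before it, show where the E-box sits in each promoter (capitals mark it).
Naglu promoter: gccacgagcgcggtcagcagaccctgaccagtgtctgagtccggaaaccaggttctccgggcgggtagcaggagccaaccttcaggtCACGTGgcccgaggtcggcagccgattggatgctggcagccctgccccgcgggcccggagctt
Glb1 promoter: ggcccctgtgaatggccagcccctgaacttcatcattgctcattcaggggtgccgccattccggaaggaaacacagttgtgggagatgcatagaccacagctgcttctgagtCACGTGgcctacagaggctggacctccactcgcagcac
Gaa promoter: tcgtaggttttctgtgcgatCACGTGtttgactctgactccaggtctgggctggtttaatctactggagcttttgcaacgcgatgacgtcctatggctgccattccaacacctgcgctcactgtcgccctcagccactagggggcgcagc
They correspond to chr11:101069934-101070083, chr9:114400918-114401067 and chr11:119267803-119267952, all on the plus strand. In Naglu and Glb1 the E-box lies in the part of the stretch nearer to the gene, and in Gaa it lies near the far end.

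Before the values of single genes, the lists themselves need describing. Normal 1 and 2 held 1645 and 2124 peaks, starved 1 and 2 held 825 and 1178, on the assembled chromosomes. The background read density, recovered from the weakest background of each list, was 644.0 and 644.1 reads per Mb for the normal libraries and 428 and 434 for the starved ones. The narrowest peaks were 152 bp wide in the normal and 306 bp wide in the starved lists. The libraries of one condition differed by less than the counting noise of independent libraries. Over peaks shared by 2 lists with at least 24 reads summed over both summits, the squared difference of the reads, scaled so that independent libraries give about 1, averaged 0.162 for the normal pair (304 peaks) and 0.211 for the starved pair (292 peaks). Across conditions it lay between 1.25 and 1.35. Peaks had to be called in both lists to enter, which itself removes some unequal ones. Since the libraries of a condition differed by less than the sampling noise, they are counted here as 1 sample per condition. Whether they share reads was not tested. A call in both lists of a condition is then not an independent repeat, and no test between the conditions can stand on these lists.

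**Figure D1:**
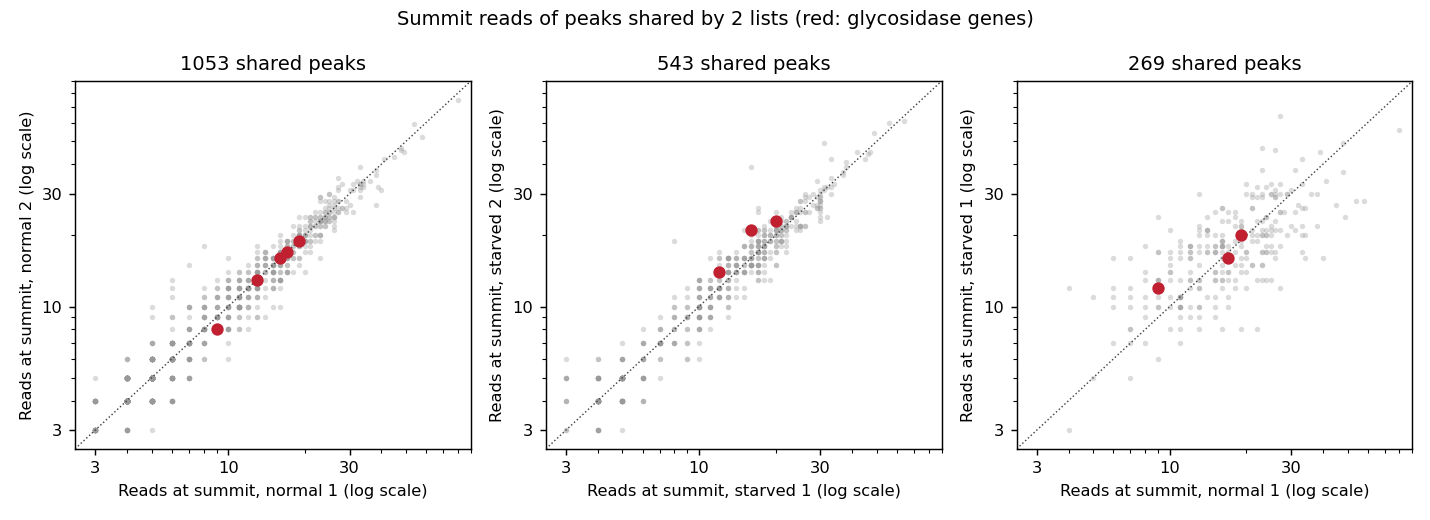
Reads at the summit (both axes on a log scale) for peaks shared by normal 1 and normal 2, by starved 1 and starved 2, and by normal 1 and starved 1, where each grey point is a peak, red points are glycosidase genes and the dotted line marks equal reads. The points of the first pair of panels hug the line, with scaled squared differences of 0.162 and 0.211, and those of the third scatter more widely (1.33).

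Of the 8 genes, 5 had a peak at their start in both normal lists: Naglu, Gla, Gaa, Hexa and Glb1. Normal 1 called these 5, and normal 2 called 6, the additional one being a peak deep inside Manba. By the same rule 5.46% and 6.5% of all protein-coding genes were called in these lists, and 4.08% in both. Starved 1 called 3 genes (Naglu, Gla and Glb1; 3.23% of all genes) and starved 2 called 5 (those 3, Gaa and Hexa; 4.1%). Both starved lists thus shared 3 genes, against 2.48% of all genes. The same 3, Naglu, Gla and Glb1, were called in all 4 lists (1.35% of all genes). This number rests on starved 1, since without that list 5 of the 8 genes were called in all the remaining lists. It also rests on the threshold at Glb1. With a −log10 q of at least 5, or at least 10 reads at the summit, Glb1 had no call in normal 2. Then 2 genes were called in all 4 lists and 4 in both normal lists. No member was called in both lists of one condition and neither list of the other, which held for 2.33% (normal) and 0.946% (starved) of all genes. Without starved 2, 2 members (Gaa and Hexa) were called in the normal lists alone, and without normal 1 there was 1 (Manba). When peaks needed a −log10 q of 5 or more, 2 were again called in the normal lists alone. The shares of all genes are not given for lists left out or for other thresholds. The counts under those settings therefore describe the members only. Gusb and Neu1 had no call in any list. On the number of genes called per list, 5.5 on average in the normal and 4 in the starved lists, the two-sided exact permutation test over the 6 labelings gave p = 0.67, and 0.33 is the smallest p that 4 lists allow. That test takes the 4 lists as independent.

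**Figure D2:**
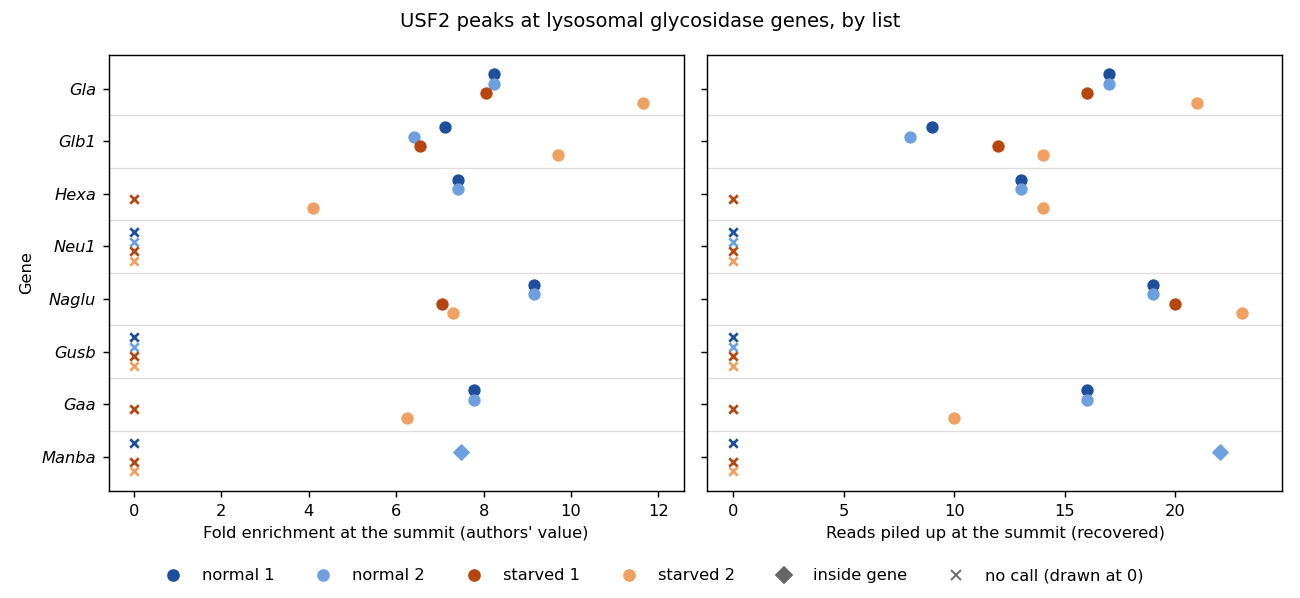
Fold enrichment (left) and recovered reads at the summit (right) of the peak at each gene, 1 point per list, with blue for normal and orange for starved. Diamonds are peaks inside a gene, and crosses at 0 mark lists without a call, which are not measurements of 0. Naglu, Gla and Glb1 have a point in all 4 lists, Gaa and Hexa lack one in starved 1 alone, and Gusb and Neu1 have none.

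Each peak is described below by its fold enrichment, the reads at the summit over the local background as the authors' peak caller gave it, by its −log10 q (the caller's p-value corrected over the genome, so that higher is stronger) and by its rank by −log10 q in its own list. These values depend on the depth and peak width of a library. They place a peak within its list and do not measure a change between conditions. Reads at the summit were recovered from the fold and p-value, and they are not scaled for depth.

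Among the enzymes of glycosphingolipid breakdown, Gla and Glb1 were called in every list. Gla encodes alpha-galactosidase A, which removes terminal galactose from globotriaosylceramide and is deficient in Fabry disease. Its region, chrX:134600995-134601434, lies across the start of the gene (chrX:134588169-134601005, minus strand). The fold enrichment at Gla was 8.23 in both normal lists, 8.05 in starved 1 and 11.6 in starved 2. The −log10 q values were 9.88, 9.99, 9.34 and 17.2, with both normal lists given first. Starved 2 stands above the other 3 lists, and the normal values lie between those of the starved lists. Gla ranked 213 of 1645, 275 of 2124, 170 of 825 and 66 of 1178, and the last was the best rank of any member in any list. The summit held 17 reads in each normal library, 16 in starved 1 and 21 in starved 2. Summits lay 170, 148, 204 and 205 bp before the start site of Gla, and all 4 peaks covered both E-boxes. The nearer E-box was between 12.5 and 43.5 bp from the summit. Hnrnph2, which encodes an RNA-binding protein and runs the other way from chrX:134601179, starts 174 bp from the start of Gla. The summits lay 4 to 31 bp from that start, and both E-boxes lie inside the span of Hnrnph2, beginning 15 and 48 bp from its start. These peaks therefore cannot be assigned to Gla rather than Hnrnph2.

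Glb1 encodes the lysosomal beta-galactosidase that acts on gangliosides and keratan sulfate. The gene spans chr9:114401078-114474379 on the plus strand, and its region is chr9:114400754-114401194. Fold enrichments at Glb1 were 7.11 and 6.40 (normal 1 and 2) and 6.54 and 9.71 (starved 1 and 2). With 9 and 8 reads at the summit in normal 1 and 2, it was the weakest of the 5 gene-start peaks in both normal lists, ranked 414 of 1645 and 765 of 2124 (−log10 q 5.86 and 4.76). In starved 1 the summit held 12 reads and ranked 301 of 825 (−log10 q 5.65). In starved 2 it held 14 reads and ranked 139 of 1178 (−log10 q 11.3). Both starved counts are above both normal counts, in libraries with a lower background density but wider peaks. The lowest background of any peak was 0.0979 reads in each normal list, 0.131 in starved 1 and 0.133 in starved 2. At Glb1 the local background was 0.406 reads in both normal lists, 0.988 in starved 1 and 0.544 in starved 2. The unscaled counts therefore cannot be compared between conditions. Summits fell within 17 bp of each other in all 4 lists, 35 to 52 bp before the start site, and 2.5 to 10.5 bp from the centre of the E-box. Tmppe, a transmembrane protein with a metallophosphoesterase domain, has an annotated end 17 bp inside the start of Glb1, so it shares these peaks.

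Hexa encodes the alpha subunit of hexosaminidase A, the enzyme of ganglioside breakdown that is lost in Tay-Sachs disease. Its peaks (region chr9:59539533-59539881) lay just after the start of the gene (chr9:59539540-59565109, plus strand). Fold enrichment was 7.41 in both normal lists and 4.09 in starved 2, with no call in starved 1. The normal peaks ranked 309 of 1645 and 438 of 2124 (−log10 q 7.11 and 7.28), while the starved 2 peak ranked 836 of 1178 (−log10 q 2.70), the lowest −log10 q of any member. Reads at the summit were 13 in each normal library and 14 in starved 2, and the local background was 0.890 reads in both normal lists and 2.67 in starved 2. The starved 2 peak thus had a lower fold and a higher local background. Its reads at the summit are not scaled for depth or peak width, and why its fold was lower was not tested. The summit lay 85 bp after the start site in both normal lists, at the same base, and 171 bp after it in starved 2. One end of Tmem202, a transmembrane protein gene, lies within 37 to 49 bp of these summits, nearer than the start of Hexa. These peaks therefore cannot be assigned to Hexa rather than Tmem202. Only 16.3% to 23.5% of each Hexa peak lies in the promoter window, so most of the DNA under these peaks was not searched for E-boxes.

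Neu1, the lysosomal sialidase that forms a complex with cathepsin A and beta-galactosidase, had no call in any list. The gene lies at chr17:34931253-34937297. The nearest summit was 19394 and 19335 bp outside the gene under normal culture and 175385 and 284069 bp outside it after starvation. A missing call means that no peak passed the caller's threshold there, and it does not show that USF2 was absent.

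Among the members grouped here under glycosaminoglycan breakdown, Naglu was called and Gusb was not. Glb1, which also acts on keratan sulfate, is described above with the enzymes of glycosphingolipid breakdown. Naglu encodes alpha-N-acetylglucosaminidase, which cleaves heparan sulfate and is deficient in a form of Sanfilippo syndrome. The gene lies at chr11:101070090-101077672 on the plus strand, and the region at its start, chr11:101069840-101070279, is near no other protein-coding gene end. Naglu had fold enrichments of 9.15 and 9.14 under normal culture and of 7.06 and 7.30 after starvation. It had the best rank of the members in normal 1 (165 of 1645, −log10 q 12.2) and normal 2 (189 of 2124, 12.2). In starved 1 it ranked 169 of 825 (9.43), next to Gla, and in starved 2 it ranked 141 of 1178 (11.1), next to Glb1 and behind Gla. The normal folds are above the starved ones without overlap. Unscaled reads at the summit run the other way, with 19 in each normal library, 20 in starved 1 and 23 in starved 2. The lowest background of a list was also higher after starvation, 0.131 and 0.133 against 0.0979 reads. Per Mb it was lower, 428 and 434 against 644.0 and 644.1 reads, because the narrowest starved peaks were wider (306 against 152 bp). The unscaled reads therefore cannot be compared between conditions. The local background under the peak was 1.19 reads in both normal lists, 1.98 in starved 1 and 2.29 in starved 2, where the peaks are also wider (234 to 293 against 412 to 440 bp). Whether the order of the folds comes from these differences was not tested. The peaks of all 4 lists covered the E-box, and summits were 9.5 to 66.5 bp from its centre. Gusb encodes beta-glucuronidase, which also acts on glycosaminoglycans (chr5:129989011-130003049, minus strand). Its nearest summit was 101254 bp outside the gene in normal 2 and more than that in the other lists.

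Gaa encodes acid alpha-glucosidase, which releases glucose from glycogen in the lysosome and is deficient in Pompe disease. Its region is chr11:119267929-119268257, at the start of the gene (chr11:119267963-119285458, plus strand). Fold enrichment was 7.77 in both normal lists and 6.24 in starved 2, and starved 1 had no call. The peaks ranked 241 of 1645, 347 of 2124 and 453 of 1178, with −log10 q of 8.76, 8.92 and 4.77. The summits held 16 reads in each normal library and 10 in starved 2, so the starved value is the lowest. Summits lay 115, 92 and 167 bp after the start site. They were 229.5 to 304.5 bp from the E-box printed above, which lies outside the Gaa peak in all 3 lists. Between 25.1% and 27.7% of each peak falls in the promoter window, and the rest of the DNA under it was not searched.

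Manba encodes beta-mannosidase, which removes mannose late in the breakdown of N-linked glycans. The gene spans chr3:135485611-135571404 on the plus strand. Normal 2 alone had a peak in it (chr3:135554171-135554439), 17099 bp from the nearer end and 68694 bp after the start site. Whether this is exon or intron was not read here. The peak had a fold of 7.47, 22 reads at the summit over a local background of 2.08 reads, −log10 q of 10.9 and rank 237 of 2124. In normal 1 the nearest summit was 1642086 bp outside the gene, although the other normal peaks of the members matched between these libraries. A peak of this rank in 1 list of a closely matching pair is therefore given as a value of that list alone.

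**Figure D3:**
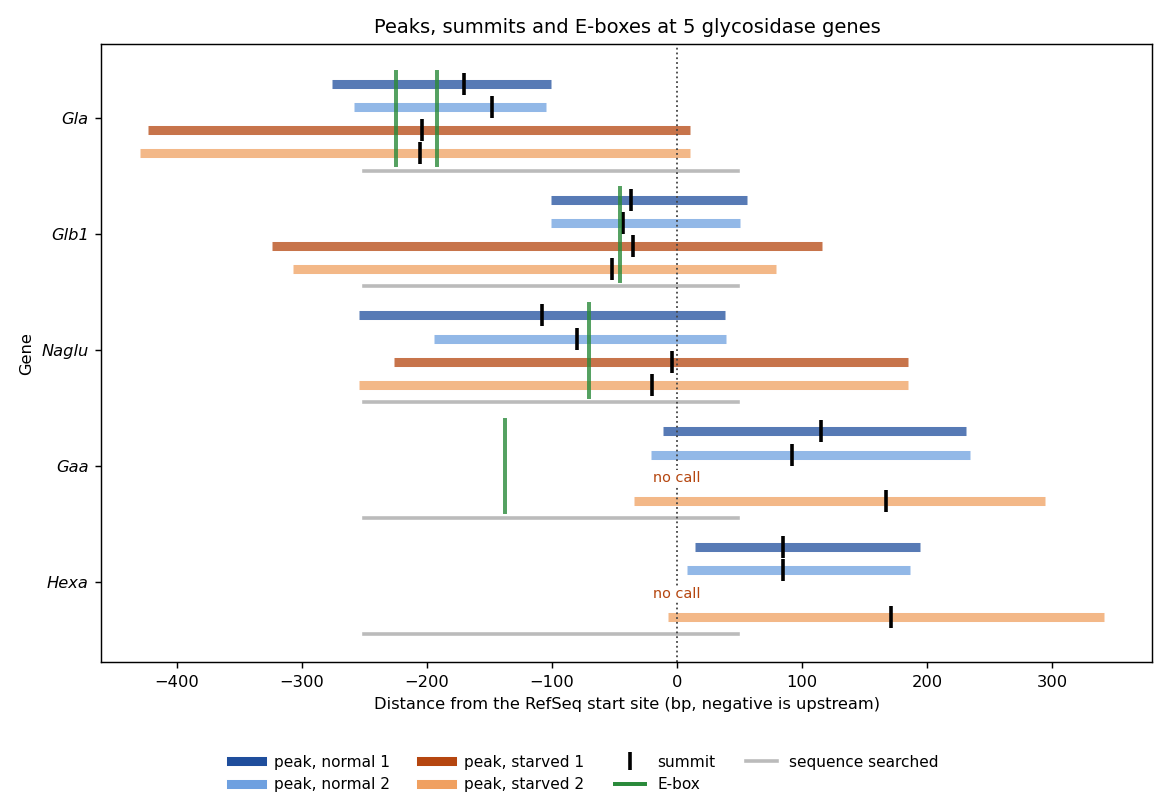
Extent of each peak (coloured bars), its summit (black ticks) and the E-boxes (green lines) against the distance from the start site in bp, for the 5 genes with a peak at their start; the grey bar under each gene marks the 300 bases searched. Summits of Gla, Glb1 and Naglu lie within 66.5 bp of an E-box inside the peak, and those of Gaa and Hexa lie 85 to 171 bp after the start, beyond the sequence searched.

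The 5 genes fell into 2 arrangements, noted after their values were seen. At Gla, Glb1 and Naglu the summits lay before the start site and the peak covered an E-box in all 4 lists, and at Gaa and Hexa they lay after the start site with no E-box in the part of the peak that could be read. The first 3 are the members called in all 4 lists, and the other pair lacked a call in starved 1. Over the whole data, 125 of 136 promoter windows of protein-coding genes that held a summit in all 4 lists contained CACGTG (91.9%), and 107 (78.7%) contained GTCACGTG. These windows include those of Gla, Glb1 and Naglu, while the summits at Gaa and Hexa lay outside their windows. The share for windows with a summit in fewer lists is not given. These shares therefore do not tie the E-box to a call in all 4 lists.

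**Figure D4:**
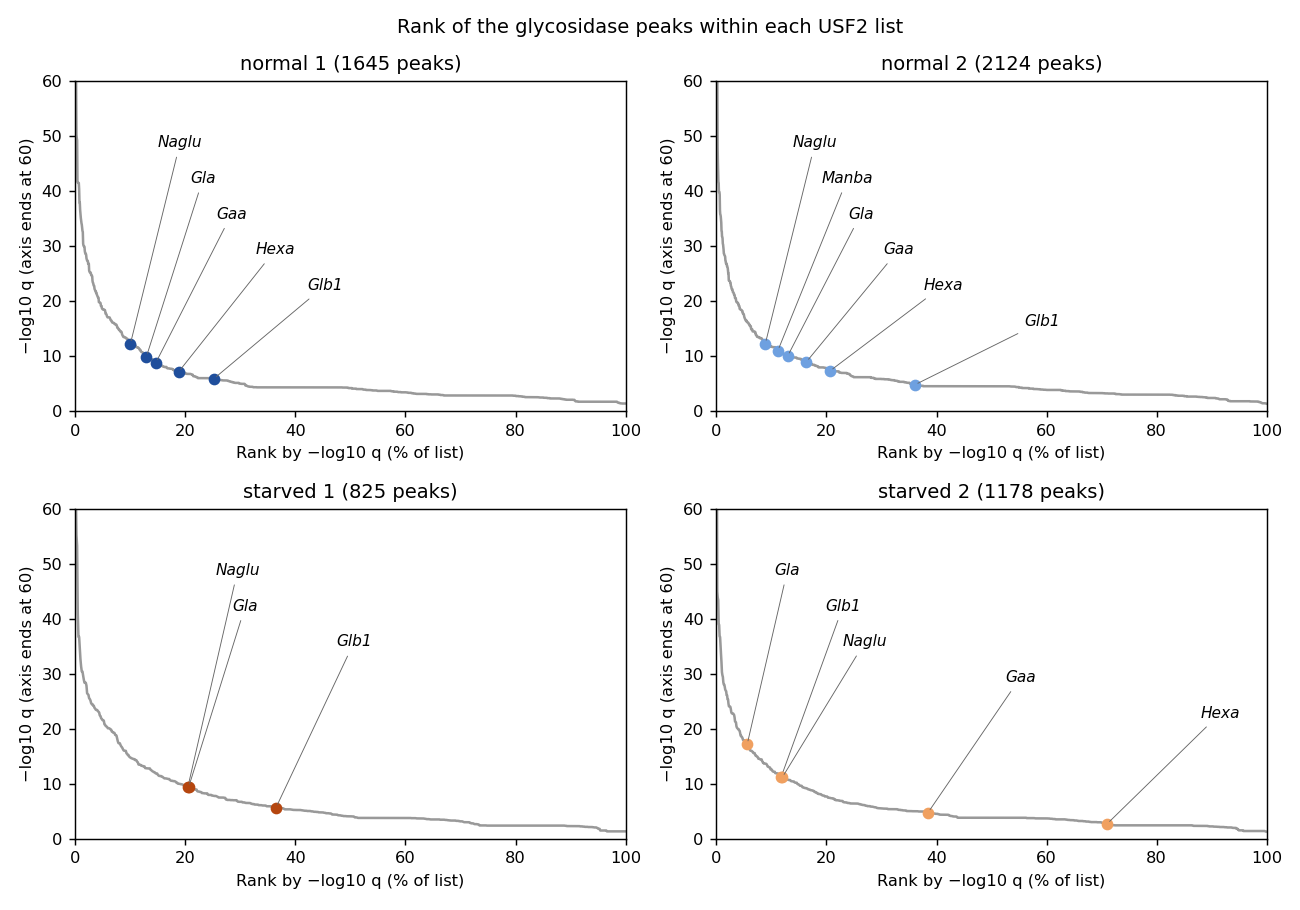
−log10 q of every peak against its rank, in percent of the list (grey line), in the 4 lists, with the members marked; the vertical axis ends at 60. In the normal lists the gene-start peaks lie between 8.90% and 36.0% of the list, and in starved 2 they run from 5.60% (Gla) to 70.97% (Hexa).

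As a share of the list, their gene-start peaks ranked from 10.03% to 25.2% in normal 1 and from 8.90% to 36.0% in normal 2. The order Naglu, Gla, Gaa, Hexa, Glb1 was the same in both normal lists, which are not independent. In starved 1 Naglu, Gla and Glb1 stood at 20.5%, 20.6% and 36.5%, where Naglu and Gla differed by 1 rank and cannot be ordered. In starved 2 Gla, Glb1, Naglu, Gaa and Hexa stood at 5.60%, 11.8%, 11.97%, 38.5% and 70.97%, and Glb1 and Naglu, ranked 139 and 141, cannot be ordered either. In the 3 lists that called them, Gaa and Hexa ranked below Naglu and Gla. Among the other genes with a gene-end peak in all 4 lists, those closest to Naglu in rank share were Sumf1, which activates lysosomal sulfatases, with a mean difference of 1.47 percentage points over the 4 lists, and Kansl1l (1.72). Closest to Gla were Wdr81, an endosomal trafficking protein (1.998), and Sumf1 (2.96). Glb1 was closest to Vps8, a subunit of the endosomal CORVET tether (6.34), and 1110038F14Rik (7.22), so no gene followed it as narrowly. These comparisons were made with 246 genes for Naglu and 245 for Gla and Glb1.

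At the members, the normal libraries were closer to each other than the starved ones in reads at the summit. Reads at the summit were equal in normal 1 and normal 2 for 4 of the 5 members called in both (Naglu, Gla, Gaa and Hexa), and at Glb1 they differed by 1 read. At Glb1 the normal peaks also started at the same base. In the starved pair none of the 3 shared members had equal reads (16 and 21 at Gla, 12 and 14 at Glb1, 20 and 23 at Naglu), and Gaa and Hexa were called in starved 2 alone. The peaks at Gla and Naglu had an identical edge. Over all shared peaks, the normal libraries had equal reads at 45.5% and the starved libraries at 30.8%. Equal reads are easier to reach at low counts. At least 24 reads summed over both summits were found at 304 of 1053 shared normal peaks and 292 of 543 shared starved peaks. The shares with equal reads therefore do not compare the pairs on equal terms.

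Of the further glycosidase genes, 15 are reported here, and this count does not cover the whole list, so it gives no share of it. None of these 15 had a gene-end peak in any list, against 2.54%, 2.68%, 2.01% and 2.3% of all protein-coding genes from normal 1 to starved 2. Idua, the iduronidase gene of glycosaminoglycan breakdown, had a peak inside the gene in starved 2 alone (fold 6.07, rank 411 of 1178), also near an end of Slc26a1. With peaks inside genes counted, starved 2 called 4.1% of all protein-coding genes. Galc, Man2b1, Man2b2, Fuca1, Fuca2, Hyal1, Hyal2, Hpse, Ctbs, Aga, Hexdc, Gba2, Neu3 and Neu4 had no call. Among 8 partners of these enzymes, Ctsa and Igf2r were called in every list, as were 1.35% of all protein-coding genes. Gm2a, Psap, Scarb2, Hgsnat, M6pr and Sort1 were called in none. Igf2r, the large mannose 6-phosphate receptor that carries glycosidases to the lysosome, had folds of 16.3, 13.6, 13.6 and 12.8 from normal 1 to starved 2, with ranks of 42 of 1645, 82 of 2124, 56 of 825 and 61 of 1178. The peaks at Ctsa, the cathepsin that protects beta-galactosidase and sialidase, had folds of 30.1, 30.1, 12.5 and 11.3, with ranks of 3 of 1645, 4 of 2124, 32 of 825 and 51 of 1178. Their summits held 38 reads in each normal library, 30 in starved 1 and 26 in starved 2. They lay 885 to 911 bp from the nearer end of Ctsa, and Neurl2 has an end within 1000 bp too, so they cannot be assigned to Ctsa alone. The members and these lists were chosen with results of these data known, so their counts describe the named genes and test nothing about glycosidases as a class.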

How the data were processed

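Peaks were deposited as 1 list per USF2 library. Whether reads were pooled or shared between libraries before calling is not given in the sources used here. Build GRCm38, the aligner Bowtie2 (2.5.1), the peak caller MACS2 (2.2.7.1) and deepTools (3.5.1) are named per the submitters' processing notes. Parameters, and whether inputs served as control, are not given in the sources used here. Per the deposited narrowPeak columns, the fold enrichment is a ratio of summit reads to local background, the −log10 p and −log10 q values are the caller's, and the deposited score equals −log10 q multiplied by 10 without its decimals. The 8 peaks of starved 2 outside chromosomes 1 to 19, X and Y were left out.

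Summit reads k and background b were recovered as the whole k for which (k + 1)/(b + 1) gives the fold and the Poisson tail gives the p-value. The p-value of every peak was matched to within 0.001 in −log10 units. Ranks give tied peaks the same, best rank. Gene spans, start sites and sequences are RefSeq's for GRCm38.p6. Exons were not read. Both steps were tested on simulated data.

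Named genes were all 8 members, every called gene of 2 context lists (some genes of the glycosidase list are not reported here), genes sharing a member's peak, and the 2 genes closest in rank share to each member called in all 4 lists, leaving out genes with the member's own peak. The members, lists and rules were chosen with earlier results of these data known. Alternatives covered distance, overlap, thresholds, list length, motif and each library left out. Python 3.11.15, SciPy 1.17.1, pandas 2.3.3 and Matplotlib 3.10.9 were used.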

Additional observations from a re-analysis of the deposited data

How the results depend on the processing

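Of 93 recomputed values under other settings, 84 kept their direction or stayed within 1.5 times. Calls of the 8 genes were the same with summits within 500 or 5000 bp and with any base of the peak. With −log10 q of at least 5, starved 2 called 3 members in place of 5, and 2 (Gaa and Hexa) were then called in the normal lists alone. With all lists cut to 825 peaks, 1 member (Hexa) was called in the normal lists alone. With at least 10 reads at the summit, 1 (Glb1) was called in the starved lists alone. The wider motif CANNTG was in the windows of all 8 members, as it was in 69.0% of protein-coding windows. Leaving out a library gave 3 to 5 members called in all remaining lists, 3 to 5 in the starved lists and 0 to 2 in the normal lists alone, against 3, 3 and 0. The cause was not tested, beyond the construction of each setting. Shares of all genes called are not given for these settings.

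Paired by replicate number (replicate block), the difference of 1.5 genes per list between normal and starved gave an exact permutation p of 0.5, the smallest possible with 4 arrangements. The numbers were not taken to pair the libraries: the difference of replicate 1 and 2 in log2 fold correlated at -0.07 between the conditions over 247 regions. Summits of 8 to 23 reads limit every value, and peaks near the threshold can be missed in a shallower library. Whether depth bears on any missing call here was not tested.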
